A study of Mus musculus with 2 samples.

Results

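The genes described here are 8 genes of lipid uptake and storage, Gpihbp1, Lpl, Cd36, Fabp4, Plin1, Plin2, Adipoq and Pparg. They were followed mainly through cell classes named from markers in the mouse temporomandibular joint (TMJ). They were chosen by symbol, and all 8 were present among the 32285 genes of the count tables, of which 25095 had at least 1 UMI (unique molecular identifier, 1 captured RNA molecule). The cells came from TMJs of female C57BL/6 mice, labelled 8 to 10 weeks old, after intra-articular injection of CFA (Complete Freund's Adjuvant, an agent that inflames the joint). Of the libraries, 1 held WT cells and the other cells of Prox1 mutant mice, which the methods describe as heterozygous for Prox1, the transcription factor that specifies lymphatic endothelium. The heterozygous allele was carried in every cell of the animal, both groups received CFA, no joint without CFA was analysed here, and how many animals went into each library was not stated. With 1 library per genotype there is no replicate check and no test. All intervals cover counting error at 95% confidence and say nothing of the spread between animals, and genotype and library cannot be told apart.

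Triglyceride travels in blood inside lipoprotein particles that are too large to leave a capillary. Lipoprotein lipase, encoded by Lpl, is made by parenchymal cells and some macrophages, and GPIHBP1, a protein of capillary endothelium, carries it across the endothelial cell and holds it on the luminal face, where it releases fatty acids. CD36 takes up long-chain fatty acids, FABP4 binds them inside endothelial cells and adipocytes, and PPARG is the nuclear receptor that switches on Cd36, Fabp4 and Lpl and that fat cells need to form. PLIN1 and PLIN2 coat lipid droplets, PLIN1 in adipocytes and PLIN2 in most cells that store lipid, and Adipoq encodes adiponectin, a hormone secreted by fat cells.

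The filters of the methods, at least 500 genes per cell and under 10% mitochondrial UMIs, kept 4352 of 5709 barcodes in WT and 5757 of 7846 in the mutant, with 48366846 and 54330221 UMIs and medians of 6997 and 4848 UMIs per cell. The libraries shared 10 barcodes, 4 of them among the kept cells. Cells were clustered again without the 8 genes, and classes were named from marker lists that held none of the 8. A level given below thus played no direct part in the choice of its cells. Genes of like pattern, such as the adipocyte marker Cidec, stayed in the lists, which were chosen with earlier results of these data known. Levels are CPM, the UMIs of a gene in every 1000000 UMIs of the cells in a class. Because every molecule was counted at its 3' end, a level is compared between classes and libraries of the same gene, not between genes.

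Among the kept cells, Gpihbp1 had 4808 UMIs in WT and 2153 in the mutant, Lpl 18006 and 14986, and Cd36 21788 and 16332. Fabp4 had 55194 and 33433 UMIs, Plin2 8269 and 7614, and Pparg 2491 and 3327. The adipocyte genes were rare in WT, where Plin1 had 39 UMIs and Adipoq 225, against 467 and 1415 in the mutant. Adipocytes numbered 7 among the kept cells in WT and 187 in the mutant. Under a stricter filter, at least 1000 genes and under 5% mitochondrial UMIs, they numbered 6 and 19. Clusters left unnamed among all cells held 637 WT and 1956 mutant cells, with 295 and 342 of the Gpihbp1 UMIs. Among them was a cluster of 7 WT and 627 mutant cells. Few of these clusters are described below, so the named classes cover a smaller part of the mutant library than of the WT library.

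**Figure D1:**
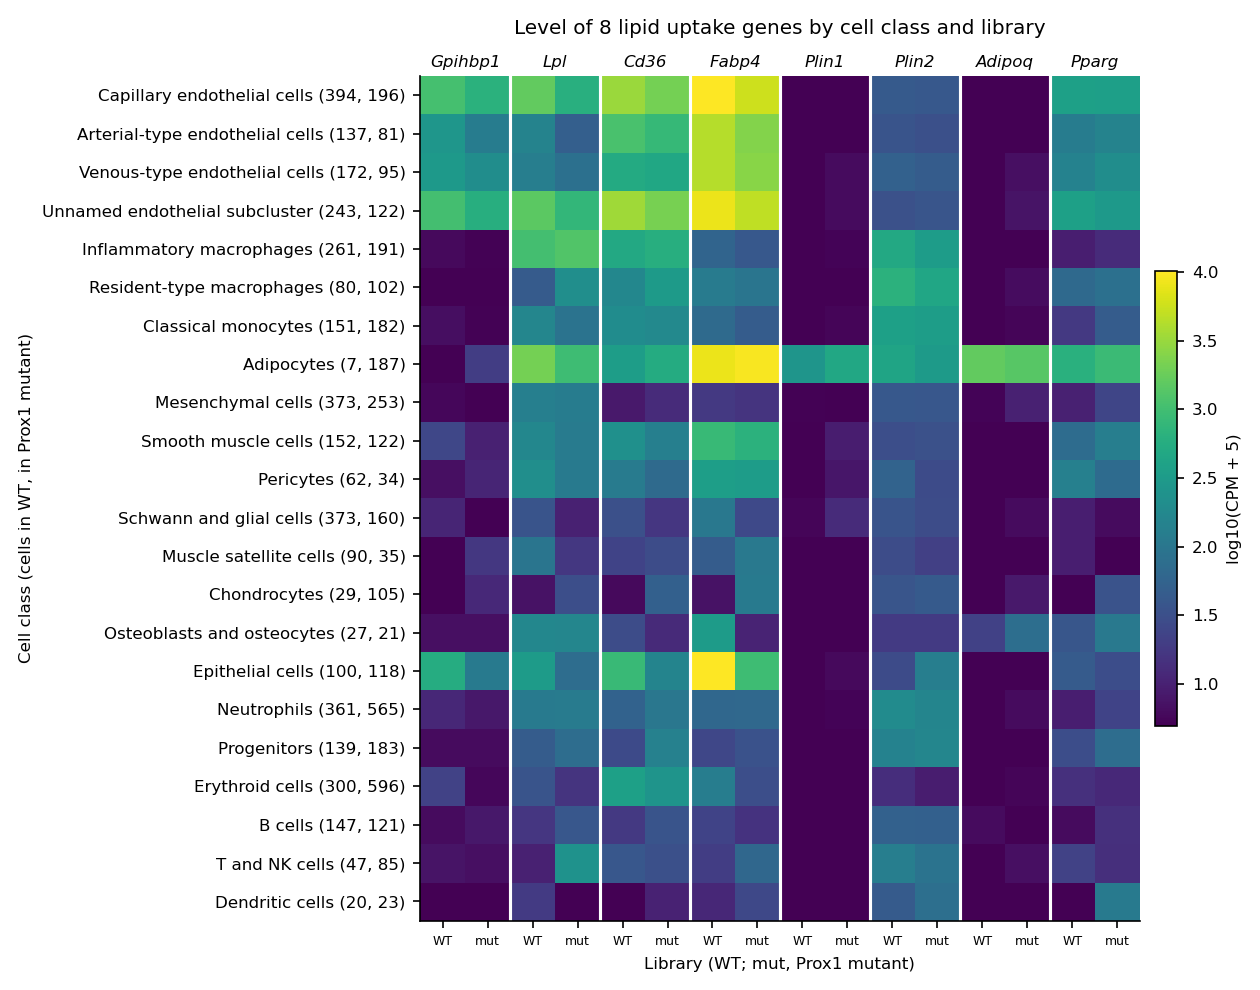
Level of each gene as log10 of CPM + 5 (colour) in the cell classes of the TMJ (rows, with the number of cells in WT and in the mutant) and in the WT and mutant libraries (paired columns). Colours compare classes within a gene. Gpihbp1 is brightest in capillary cells and the unnamed endothelial subcluster, Plin1 and Adipoq in adipocytes, and Lpl is bright in capillary cells, inflammatory macrophages and adipocytes.

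The grouping of these genes as genes of capillaries and adipocytes held only in part. Plin1 and Adipoq were largely confined to adipocytes and had no UMI in capillary cells. Pparg was also found in resident-type macrophages, at 62.4 CPM in WT and 77.8 in the mutant. Gpihbp1 reached 560 CPM in WT epithelial cells, which also carried endothelial markers and held Fabp4 close to the WT capillary level. Cd36 was also found in erythroid cells and in inflammatory macrophages, at 497 CPM in WT and 587 in the mutant. Among classes of at least 30 cells in a library, Lpl was highest in capillary endothelial cells in WT, but in the mutant it was highest in inflammatory macrophages, with capillary cells in rank 4 of 21 classes. The 7 WT adipocytes, too few to be ranked, held more, 2064 CPM (1827 to 2324). Plin2 was higher in every macrophage subset than in any endothelial subtype in both libraries.

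Gpihbp1 (ENSMUSG00000022579, chr15:75596628-75599481, plus strand, GRCm38) was highest in capillary cells and the unnamed endothelial subcluster in both libraries. Capillary endothelial cells, 394 in WT and 196 in the mutant and named from Car4 with Cd300lg and Btnl9 or with Rgcc and Timp4, held 1081 CPM in WT (1034 to 1130) against 637 in mutants (591 to 685). Arterial-type cells held 267 and 118 CPM, and venous-type cells 298 and 206. The unnamed endothelial subcluster held 1027 CPM in WT (968 to 1089) and 579 in the mutant (527 to 635). Its intervals overlapped those of capillary cells, and it is not among the named subtypes compared next. Epithelial cells, which also carried endothelial markers, held 560 and 106 CPM. The capillary level was 3.74-fold that of the other named endothelial subtypes in WT (log2 1.90, 1.80 to 2.01) and 3.60-fold in the mutant (log2 1.85, 1.67 to 2.02), so the step between capillary and larger vessels was of similar size in the libraries while the levels differed. B cells, which should lack the gene, held 1.29 CPM in WT and 3.10 in the mutant, and no B cell had a Gpihbp1 UMI after thinning, that is, after every cell was reduced at random to 2000 UMIs (0 of 119, exact upper limit 3.05%, and 0 of 96, upper limit 3.77%). Resident-type macrophages had no Gpihbp1 UMI, with exact upper limits of 3.43 CPM in WT and 1.72 in the mutant.

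Lpl (ENSMUSG00000015568, chr8:68880491-68907448, plus strand) showed the steepest step of these genes between capillary and other endothelial cells. Its level was 1622 CPM in WT capillary cells against 131 in the other named endothelial subtypes, a 12.4-fold difference (log2 3.63). In the mutant it was 606 CPM against 67.4, log2 3.17. Over the classes of at least 30 cells, which leaves out the WT adipocytes, WT levels ran from 1622 CPM in capillary cells through 1484 in the unnamed endothelial subcluster and 1030 in inflammatory macrophages to 328 or less in the other 16 of 19 classes, and the 3 highest did not overlap in their counting intervals. In the mutant, where adipocytes were numerous enough to be ranked, the order was inflammatory macrophages at 1259 CPM, adipocytes at 943, the unnamed endothelial subcluster at 776 and capillary cells at 606.

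Cd36 (ENSMUSG00000002944, chr5:17781690-17888801, minus strand) had its 3 highest levels, among the classes ranked, in endothelium in both libraries. The unnamed endothelial subcluster held 3401 CPM in WT and 2145 in the mutant, and capillary cells 3221 and 2052, with overlapping intervals in each library. Arterial-type cells followed at 1131 and 823 CPM. An unnamed cluster near erythroid cells, which was not among the classes ranked, held more than arterial-type cells in both libraries and is given among the other observations. Venous-type cells held 514 and 467 CPM and inflammatory macrophages 497 and 587, so venous-type cells were the lower of these in the mutant. Erythroid cells, which carry CD36 as they mature, held 376 and 254 CPM, above the 12.9 and 31.0 CPM of B cells. The first 250 bases before and 50 after a RefSeq start of Cd36 (GRCm38.p6, chr5:17835847-17836146, minus strand) are shown because Cd36 lies among the genes that PPARG is known to switch on, and Pparg was itself detected in capillary cells. Capitals mark 1 copy of AGGTCA, the single nuclear receptor site, and 2 copies of CCGCCC, the GC box, on either strand.

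Cd36: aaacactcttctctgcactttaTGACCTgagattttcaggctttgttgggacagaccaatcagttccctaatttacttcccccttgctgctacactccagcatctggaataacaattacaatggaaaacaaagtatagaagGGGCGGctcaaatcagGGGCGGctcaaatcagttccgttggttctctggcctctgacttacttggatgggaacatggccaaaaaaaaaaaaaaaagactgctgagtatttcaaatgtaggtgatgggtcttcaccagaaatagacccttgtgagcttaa

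The single site occurred in 16.3% and the GC box in 35.7% of the 32851 mouse promoters of that length. The PPAR-RXR direct repeat, the spaced pair of such sites that PPARG binds with its partner RXR, was in 0.381% of them and in none of the 7 windows listed for Cd36, Plin1, Plin2, Adipoq and Pparg. No window was listed for Gpihbp1, Lpl and Fabp4, so those were not searched. For so rare a motif, absence from 7 windows says little.

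Fabp4 (ENSMUSG00000062515, chr3:10204088-10208576, minus strand) was high in all blood vessel subtypes, with a shallower capillary step than Gpihbp1, Lpl and Cd36 in both libraries. It held 10116 CPM in WT capillary cells and 5661 in the mutant, against 4393 and 2465 in arterial-type and 4346 and 2575 in venous-type cells, a capillary excess of 2.32-fold in WT and 2.23-fold in the mutant. Pparg (ENSMUSG00000000440, chr6:115360951-115490399, plus strand, overlapping Gm44079) also peaked in capillary cells among the named subtypes, at 376 CPM in WT and 362 in the mutant, 2.82-fold and 1.96-fold the level of the others. Whether reads of the shared span were counted to Pparg was not tested. Plin2 (ENSMUSG00000028494, chr4:86648386-86670060, minus strand) showed no capillary excess, at 38.7 and 35.4 CPM in capillary cells and log2 ratios to the other subtypes of -0.16 (-0.58 to 0.25) and -0.03 (-0.60 to 0.52). Plin1 and Adipoq had no UMI in capillary cells, with exact upper limits of 2.04 CPM in WT and 3.26 in the mutant.

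**Figure D2:**
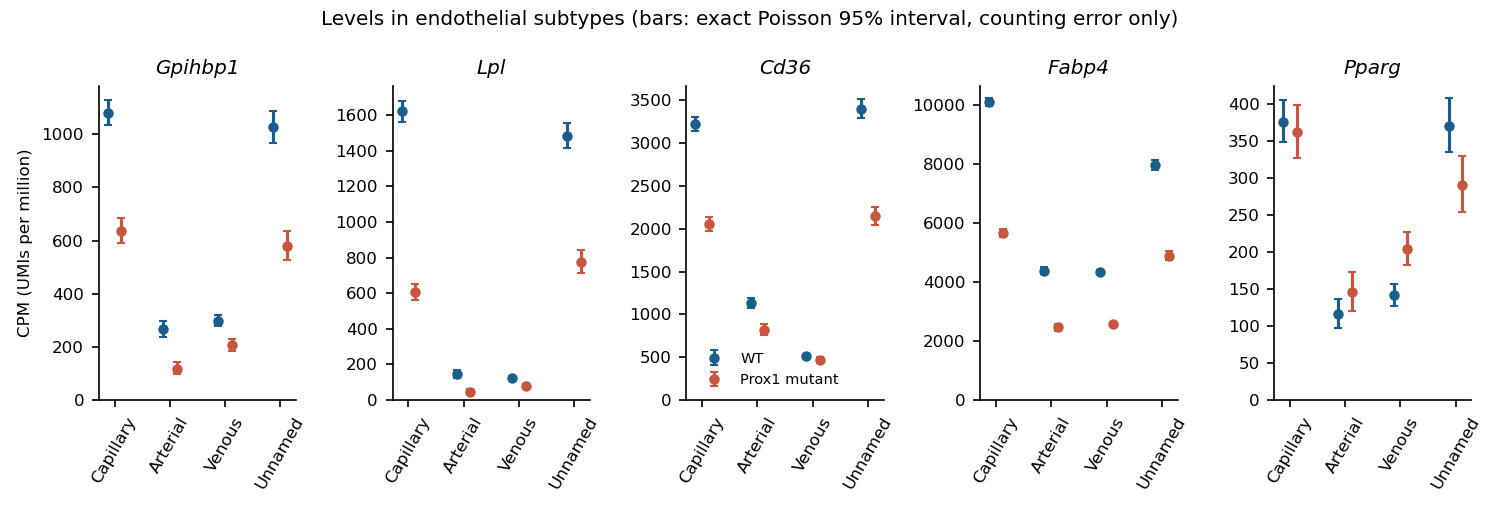
Level in CPM (vertical axis, separate for each gene) of Gpihbp1, Lpl, Cd36, Fabp4 and Pparg in capillary, arterial-type, venous-type and unnamed endothelial cells of the WT and mutant libraries, with exact Poisson 95% intervals for counting error. Capillary and unnamed cells sit above arterial-type and venous-type cells for every gene, and for Gpihbp1, Lpl, Cd36 and Fabp4 the mutant point lies below the WT point in all 4 groups.

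In capillary cells, 5 of the 8 genes had enough UMIs for a ratio to be read. Of these 5, 4 were lower in the mutant library, and Lpl differed most. The share of all genes that were lower by any amount was not counted, so this count has no background. Shares past 2-fold are given below. Lpl went from 1622 to 606 CPM, a log2 ratio of mutant to WT of -1.42 (-1.54 to -1.30). Fabp4 followed at -0.84 (-0.88 to -0.80), Gpihbp1 at -0.76 (-0.89 to -0.64) and Cd36 at -0.65 (-0.72 to -0.58). Pparg, the receptor known to act on these genes, stood at -0.06 (-0.24 to 0.12), an interval that holds 0. The share of capillary cells with an Lpl UMI at 2000 UMIs per cell was 87.2% in WT and 60.2% in the mutant (93.1% and 82.7% before thinning). For Gpihbp1 it was 80.1% and 60.7% (89.8% and 86.2% before thinning). Capillary cells of the mutant were deeper, with a median of 5239.5 UMIs against 3993, so the unthinned shares favour the mutant.

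A 2-fold ratio was used to set these values against all genes with at least 200 UMIs over both libraries. In capillary cells 3000 genes met that minimum, of which 2.10% were at least 2-fold lower in the mutant and 0.733% at least 2-fold higher, with a median log2 ratio of 0.07. Of the 5 lipid uptake genes measured there, 1, Lpl, was past 2-fold lower and 0 were past 2-fold higher. The 10 endothelial identity markers, among them Pecam1 and Cdh5, summed to 10512 CPM in WT and 10350 in the mutant, with a median log2 ratio of -0.07 and 0 past 2-fold. The markers that named the capillary cells had a median of -0.58 over 8 genes, with 2 past 2-fold lower and 0 past 2-fold higher. Timp4 stood at -1.13, Rgcc at -0.85 and Car4 at -0.72 but Kdr at 0.38. Ribosomal protein genes made up 4.67% of capillary UMIs in WT and 2.85% in the mutant (log2 -0.71), mitochondrial genes 0.721% and 0.473% (log2 -0.61), and the summed level of haemoglobin genes was 627 and 2205 CPM. Their part in the lower levels was not tested. With haemoglobin, mitochondrial and ribosomal protein genes left out of the total, the log2 ratios were -1.45 for Lpl, -0.87 for Fabp4, -0.79 for Gpihbp1 and -0.68 for Cd36.

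Capillary cells fell into 2 subclusters, and the direction held in each. The larger, with 267 WT and 146 mutant cells, went from 867 to 527 CPM for Gpihbp1, 1421 to 571 for Lpl, 3379 to 2154 for Cd36 and 7624 to 5096 for Fabp4. In the smaller, with 127 and 50 cells, Gpihbp1 was 1384 and 952 CPM, Lpl 1907 and 709, Cd36 2995 and 1759, and Fabp4 13660 and 7284. The subclusters differed among themselves in a like way in both libraries, since the smaller held more Gpihbp1, Lpl and Fabp4 and less Cd36. It also held less Pparg, at 216 CPM in WT and 257 in the mutant against 489 and 398 in the larger. Ribosomal protein genes made up 3.05% and 2.38% of UMIs in the larger subcluster and 6.96% and 4.18% in the smaller.

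The lower levels of the mutant library were not particular to capillary cells. In arterial-type cells (137 in WT and 81 in the mutant), Gpihbp1 went from 267 to 118 CPM (log2 -1.17, -1.51 to -0.84) and Lpl from 147 to 45.7 (log2 -1.69, -2.23 to -1.18), so 2 of the 5 genes measured were past 2-fold lower and 0 past 2-fold higher. Among the 2181 genes measured in that class, 2.34% were past 2-fold lower and 0.688% past 2-fold higher. The difference was smaller in venous-type cells (172 and 95), with log2 ratios of -0.53 for Gpihbp1, -0.66 for Lpl, -0.14 for Cd36 and -0.76 for Fabp4. Venous-type Pparg, 141 CPM in WT and 204 in the mutant, rested on 1 droplet that held 144 of 347 mutant UMIs, and without the top droplet of each library it was 118 and 121 CPM.

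The unnamed endothelial subcluster (243 and 122 cells), which carried endothelial markers but no subtype's list, followed the capillary pattern with log2 ratios of -0.83 for Gpihbp1, -0.94 for Lpl, -0.67 for Cd36 and -0.70 for Fabp4. A shallow cluster near endothelium, with 222 and 181 cells and medians of 1668.5 and 1774 UMIs, had ratios of -1.24, -1.15, -1.21 and -0.92 for the same genes. Its mutant cells also carried adipocyte markers at 1050 CPM against 5.64 in WT, and 1 droplet held 78 of 274 mutant Lpl UMIs, without which the mutant level was 390 CPM in place of 523. Only 12 WT and 5 mutant endothelial cells had UMIs of at least 2 of the lymphatic markers Prox1, Mmrn1, Reln and Ccl21a. Prox1 is itself the gene altered in the mutant, so these counts do not compare the number of lymphatic cells. These cells held 90.0 and 46.3 CPM of Gpihbp1 and 39.4 and 0 of Lpl, too few cells to compare. For Fabp4, 1 droplet held 79 of 91 UMIs in WT and 95 of 96 in the mutant.

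**Figure D3:**
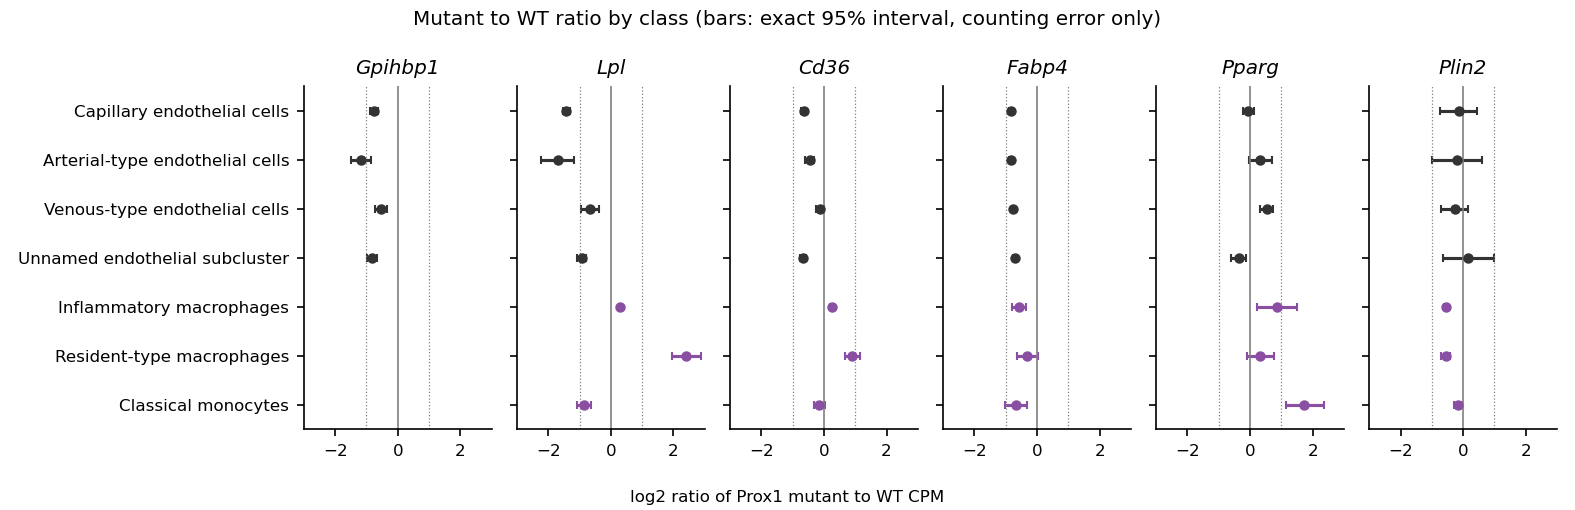
Log2 ratio of mutant to WT CPM (horizontal axis) for 6 genes in endothelial subtypes (black) and in macrophage subsets and monocytes (purple), with exact 95% intervals for counting error and dotted lines at a 2-fold ratio. Gpihbp1, Lpl, Cd36 and Fabp4 lie left of 0 in every endothelial row, and Lpl and Cd36 lie right of 0 in inflammatory and resident-type macrophages.

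At the level of single cells, most WT capillary cells carried the whole set. After thinning, 70.8% of WT capillary cells (259 of 366, 65.8 to 75.4%) had UMIs of all 4 of Gpihbp1, Lpl, Cd36 and Fabp4, against 33.7% in the mutant (66 of 196, 27.1 to 40.8%). Cells with 3 of the 4 made up 24.9% in WT and 47.4% in the mutant, and cells with 2 made up 3.55% and 16.3%. These shares depend on the share of cells with each gene, which was lower in the mutant for Gpihbp1 and Lpl. Whether all 4 occurred together beyond that was not tested. Among WT capillary cells, Lpl was found in 88.7% of 293 cells with a Gpihbp1 UMI and 80.8% of 73 without, with overlapping intervals. Among those of the mutant it was found in 60.5% of 119 cells with and 59.7% of 77 without.

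**Figure D4:**
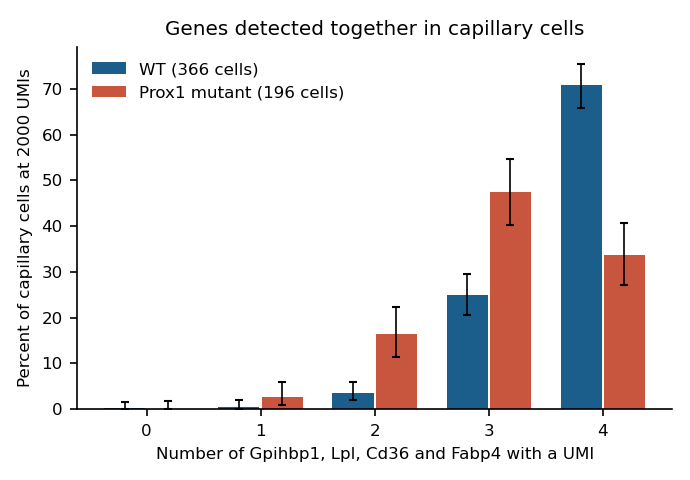
Percent of capillary cells, thinned to 2000 UMIs, by the number of Gpihbp1, Lpl, Cd36 and Fabp4 with at least 1 UMI in the WT (366 cells) and mutant (196 cells) libraries, with exact binomial 95% intervals. The WT bar is tallest at 4 genes, 70.8%, and the mutant bar at 3 genes, 47.4%.

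In the larger vessels, cells were split in the same way. Of WT arterial-type cells with a Gpihbp1 UMI, 92.5% also had Cd36 and 40% had Lpl, against 52.1% and 14.6% of those without. In WT venous-type cells the shares were 65.6% and 36.1% with Gpihbp1 against 36.4% and 8.18% without. Mutant venous-type cells had Cd36 in 63.6% and Lpl in 27.3% with Gpihbp1 and in 37.0% and 2.74% without. The Cd36 intervals of these mutant venous-type cells overlapped (40.7 to 82.8% and 26.0 to 49.1%). In mutant arterial-type cells the intervals overlapped, with Lpl in 3 of 20 cells with Gpihbp1 and 6 of 61 without and Cd36 in 15 and 32 of them. B cells, as cells that should lack Lpl, had an Lpl UMI in 4.20% of cells in WT and 6.25% in the mutant, so the venous shares without Gpihbp1 were near background. Cells at 1 depth can still differ in how far a subtype name fits them, and that part was not tested.

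Among immune classes, macrophages held the highest levels of Lpl, Cd36 and Plin2. Over all macrophages (530 in WT and 682 in the mutant), Lpl was 763 CPM in WT and 707 in the mutant, Cd36 406 and 404, and Plin2 484 and 350 (log2 -0.47, -0.52 to -0.41). This pool includes a shallow subcluster of 38 WT and 206 mutant cells, with a median of 2507 UMIs. When macrophages were clustered again, its raised subset markers were those of neutrophils (S100a8, S100a9, Camp and Ngp), and haemoglobin genes were among its leading genes. Pparg was 10.8 and 28.7 CPM (log2 1.42, 1.13 to 1.71), from 134 and 386 UMIs. By subset it was 4.35 and 7.90 CPM in inflammatory cells and 62.4 and 77.8 in resident-type cells (log2 0.32, -0.10 to 0.75). The subsets made up unequal parts of the pool, with 261 of 530 WT and 191 of 682 mutant cells inflammatory. Inflammatory and resident-type cells held 38 and 67 of the 134 WT Pparg UMIs and 53 and 167 of the 386 mutant UMIs. The rest lay in other cells of the pool, so the pooled Pparg ratio also rests on those. Of the 8280 genes measured in macrophages 3.16% were past 2-fold higher and 1.10% past 2-fold lower, with a median of 0.20, and of the 5 lipid uptake genes measured 1, Pparg, was past 2-fold higher. The near-equal Lpl level of the pooled macrophages depended on how they were drawn: the log2 ratio of mutant to WT was 0.61 with a looser cell filter, where the class held 284 WT and 807 mutant cells, and 2.86 where the libraries were merged without integration, with 200 and 299 cells, against -0.11 (-0.15 to -0.07) here.

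The subsets within this pool differed widely. Inflammatory macrophages, 261 in WT and 191 in the mutant and named from markers such as Mmp12, Spp1 and Arg1, had medians of 31235 and 28609 UMIs and held 1030 CPM of Lpl in WT and 1259 in the mutant. Resident-type macrophages, 80 and 102 cells named from markers such as Folr2, Mrc1 and Lyve1, held 40.02 and 212 CPM. Inflammatory cells thus held 25.7-fold the resident Lpl level in WT and 5.94-fold in the mutant. Cd36 followed the same order more weakly, at 3.00-fold and 1.89-fold. Pparg and Fabp4 ran the other way, with log2 ratios of inflammatory to resident of -3.84 and -3.30 for Pparg and -1.10 and -1.35 for Fabp4. Plin2 had log2 ratios of -0.43 and -0.41, but 1 WT resident-type droplet held 256 of 708 UMIs, and without the top droplets the WT levels were 483 CPM in inflammatory and 447 in resident-type cells, which turns the WT direction.

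Between libraries, inflammatory macrophages had log2 ratios of 0.29 (0.25 to 0.33) for Lpl, 0.24 (0.18 to 0.31) for Cd36 and -0.55 (-0.62 to -0.47) for Plin2. None of the 4 lipid uptake genes measured was past 2-fold, in a class where 0.777% of 6690 genes were past 2-fold lower and 2.83% past 2-fold higher. The share of cells with an Lpl UMI after thinning was 59.2% in WT and 67.5% in the mutant, but that of Cd36 was 41.2% and 36.1%, against its CPM. Without the barcodes of highest doublet score, which left 154 WT and 175 mutant cells, the ratios were -0.79 for Lpl and -0.21 for Cd36, and where the libraries were merged without integration, with 87 and 92 cells, they were 3.63 and 2.35, so the direction and size of both depended on which cells made up the class. Plin2, whose product coats droplets in lipid-laden macrophages, was 490 CPM in WT and 336 in the mutant, with shares of 62.7% and 42.9% after thinning.

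Resident-type macrophages showed the widest difference of any of the 8 genes between libraries in a named endothelial subtype or macrophage subset. Lpl was 40.02 CPM in WT against 212 for mutant cells (log2 2.40, 1.95 to 2.89), with an Lpl UMI in 3.85% and 20.6% of cells after thinning. The WT share was at the background of B cells, 4.20% in WT and 6.25% in the mutant, whose median depths were 4013 and 5030 UMIs against 12424 and 18123 in resident-type cells. It was the 1 gene past 2-fold higher of the 5 lipid uptake genes measured, where 1.54% of 2925 genes were past 2-fold higher and 1.09% past 2-fold lower. Without the top droplet of each library the levels were 32.1 and 178 CPM. The size depended on the clustering, with log2 ratios of 1.37 under the stricter cell filter, 0.37 with log-normalization in place of SCTransform and 0.35 under the looser cell filter. Of the markers that name resident-type cells, 4 were measured, with a median log2 ratio of -0.56 and 0 past 2-fold either way. Of those that name inflammatory cells, 3 were measured, with a median of -0.42, 1 past 2-fold lower and 1 past 2-fold higher. How far the class held like cells in the libraries was not tested. Cd36 was 166 and 311 CPM (log2 0.91, 0.67 to 1.15), a difference that spanned 0.21 to 0.91 over the alternatives. Plin2 was 659 and 447 CPM, but without the top droplets the log2 ratio was -0.00.

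Haemoglobin genes summed to 269 CPM in WT and 3786 in the mutant in inflammatory cells and to 289 and 9098 in resident-type cells, and Malat1, a nuclear RNA, had log2 ratios of 0.78 and 0.43. Their part in these values was not tested. Classical monocytes (151 and 182 cells) held 159 and 86.9 CPM of Lpl, but 1 WT droplet had 194 of 370 UMIs and the levels without the top droplets were 77.8 and 66.9. Their Cd36 was 196 and 176 CPM and their Plin2 379 and 340. Within inflammatory macrophages Cd36 was found more in cells with an Lpl UMI, 48.7% against 30.2% in WT and 43.4% against 21.0% in the mutant, while Plin2 was found in 61.0% against 65.1% and in 39.5% against 50%.

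**Figure D5:**
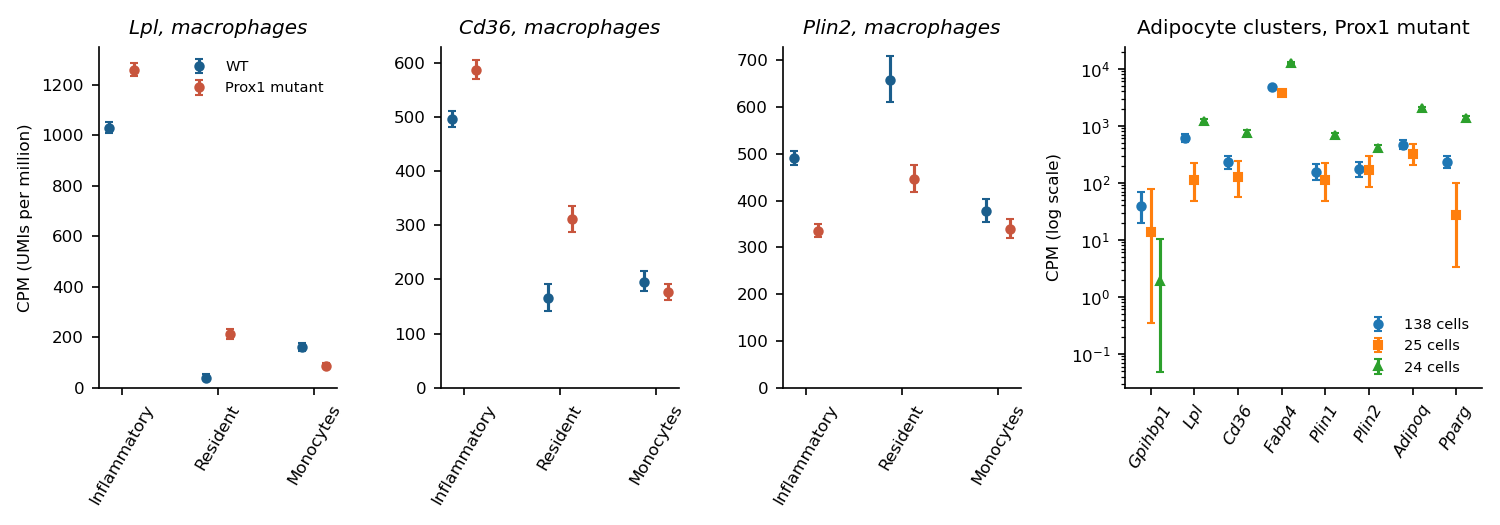
Level in CPM of Lpl, Cd36 and Plin2 in inflammatory and resident-type macrophages and monocytes of the WT and mutant libraries (left 3 panels), and of all 8 genes in the 3 mutant adipocyte clusters of 138, 25 and 24 cells on a log axis (right panel), with exact Poisson 95% intervals for counting error. Inflammatory macrophages hold the highest Lpl, and the cluster of 24 cells holds the highest level of every gene but Gpihbp1.

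Adipocytes held nearly all Adipoq (ENSMUSG00000022878, chr16:23146536-23158028, plus strand) and Plin1 (ENSMUSG00000030546, chr7:79720218-79732903, minus strand). The class had 7 cells in WT and 187 in the mutant, named without either gene from markers such as Cfd, Car3 and Cidec. Adipoq was 1597 CPM in WT and 1400 in the mutant (log2 -0.19, -0.40 to 0.03), and Plin1 264 and 470 CPM. The windows around the RefSeq starts of both are shown because these genes were the most restricted of the set. Plin1 (chr7:79732727-79733026, minus strand) holds 2 copies of TTGCNNAA, the C/EBP motif, in capitals, a motif in 10.8% of promoters, and Adipoq (chr16:23146286-23146585, plus strand) holds none of the motifs searched.

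Plin1: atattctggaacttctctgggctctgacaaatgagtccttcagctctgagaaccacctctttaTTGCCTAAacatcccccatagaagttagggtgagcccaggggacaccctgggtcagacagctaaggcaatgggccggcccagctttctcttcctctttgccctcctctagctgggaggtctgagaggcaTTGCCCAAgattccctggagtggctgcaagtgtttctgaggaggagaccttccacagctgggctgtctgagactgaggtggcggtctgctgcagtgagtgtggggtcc

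Adipoq: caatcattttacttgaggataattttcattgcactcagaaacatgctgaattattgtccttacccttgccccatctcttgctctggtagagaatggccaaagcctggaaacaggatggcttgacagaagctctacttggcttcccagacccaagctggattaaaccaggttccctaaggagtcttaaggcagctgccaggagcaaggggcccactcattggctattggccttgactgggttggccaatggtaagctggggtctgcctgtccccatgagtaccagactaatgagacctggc

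The adipocyte class was uneven, so its levels depend on the cluster. The clearest cells formed a cluster of 6 WT and 24 mutant cells with all 8 of 8 adipocyte markers raised and medians of 21744.5 and 21275.5 UMIs. Adipoq there was 1577 CPM in WT and 2043 in the mutant (log2 0.37, 0.16 to 0.59), and Pparg 629 and 1375 (log2 1.13). Lpl ran the other way at 2078 and 1232 CPM (log2 -0.75), Cd36 was 341 and 755, and Plin2 was nearly level at 425 and 407. Single droplets weighed heavily in the 6 WT cells. One held 19 of the 35 Plin1 UMIs, behind the 265 CPM set against 685 in the mutant, and 1 held 645 of 1067 Fabp4 UMIs, with 3927 CPM without it in place of 8091. The mutant Fabp4 level was 12555 CPM.

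The larger cluster, 1 WT and 138 mutant cells with a median of 1544.5 UMIs, had 5 of 8 adipocyte markers raised and lower levels of every adipocyte gene, 465 CPM of Adipoq, 156 of Plin1, 611 of Lpl, 4770 of Fabp4 and 231 of Pparg in the mutant. Haemoglobin genes took 136253 CPM there and 303884 CPM in a last cluster of 25 mutant cells, against 34332 in the 24 clear cells, and Adipoq in that last cluster was 319 CPM. Only the small cluster held more than 1 adipocyte of each library. Gpihbp1 there was at 0 UMIs in its WT cells and 1 UMI in its mutant cells, while the larger cluster held 11 UMIs.

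Several other classes held some of the genes. Smooth muscle cells held 834 CPM of Fabp4 in WT and 652 in the mutant, and pericytes 213 and 106 of Lpl. Mesenchymal cells held 128 and 116 CPM of Lpl, close to the mutant pericytes. Neutrophils held 195 and 156 CPM of Plin2 and 109 and 114 of Lpl. In T and NK cells of the mutant, 126 of 132 Lpl UMIs lay in 1 droplet, and the level was 11.3 CPM without it. The epithelial cells (100 and 118 cells, medians of 1394.5 and 1279 UMIs) held 10066 CPM of Fabp4 in WT and 933 in the mutant and 560 and 106 of Gpihbp1, beside endothelial markers at 3406 and 754 CPM and immunoglobulin genes at 98166 and 10332 CPM. The part of those markers' RNA in the epithelial levels was not tested.

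Of 67 further genes of lipid uptake, storage and adipocyte or capillary lipid handling, 16 met the minimum in capillary cells. Of these, 1 was past 2-fold lower, 0 past 2-fold higher and the median log2 ratio was -0.25. Over all genes measured there, 2.10% were past 2-fold lower and 0.733% past 2-fold higher, with a median of 0.07. The 1 past 2-fold lower was Fabp5, the fatty acid binding protein closest to Fabp4, at 557 CPM in WT and 262 in the mutant (log2 -1.09). Scarb1, the receptor that takes lipid from high-density lipoprotein, stood at -0.17, Cav1, a coat protein of caveolae, at 0.10, and Meox2 and Tcf15, a pair of transcription factors of endothelial fatty acid uptake, at 0.02 and -0.33. Lipe and Pnpla2, the lipases that break down stored triglyceride, stood at -0.35 and -0.61.

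Fabp5 was also the gene past 2-fold lower in both macrophage subsets. It was 1658 and 761 CPM in inflammatory cells, where 33 of the 67 genes were measured with a median of 0.05. In resident-type cells it was 2133 and 973 CPM, where 15 were measured with a median of 0.11. Over all genes measured in inflammatory cells, 0.777% were past 2-fold lower and 2.83% past 2-fold higher, with a median of 0.18. For resident-type cells the shares were 1.09% and 1.54%, with a median of -0.0017. G0s2, an inhibitor of triglyceride breakdown, was the 1 gene past 2-fold higher in inflammatory cells (12.6 and 31.3 CPM), and Cav1 in resident-type cells (29.8 and 85.7 CPM).

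The genes whose pattern was most like each of the 8 were ranked by Pearson correlation over 36 points, among 13696 genes. Each point was a class of at least 30 cells in 1 library. These were fewer than the classes of that size ranked by level above, so some were left out. These values describe the points, which share libraries, depth and the subtypes of 1 tissue. Nearest to Gpihbp1 were Unc45b (r = 0.97), C1qtnf9 (0.97) and Gm32688 (0.96), and nearest to Cd36 were Parvb (0.86), Pdgfb (0.79) and F11r (0.79). Fabp4 was nearest to Mmrn2 (0.91), Acer2 (0.90) and Thrsp (0.90). Lpl, high in capillaries, macrophages and fat cells alike, had the weakest neighbours, Nrp1 (0.69), Xdh (0.66) and Mgmt (0.65). Plin2 was nearest to Psap (0.92), Npc2 (0.91) and Cd68 (0.90). Plin1 was nearest to Pck1 (0.97), Cidec (0.96) and Adipoq (0.95), Adipoq to Pck1 (0.99), Cidec (0.99) and Pon1 (0.97), and Pparg to Tppp (0.80), Lipe (0.80) and Fabp4 (0.78). Cidec was among the markers that named the adipocytes. Among the 8 genes, Gpihbp1 correlated with Fabp4 at 0.88, with Cd36 at 0.70 and with Lpl at 0.34.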

How the data were processed

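Per the labels, cells of digested TMJs were captured in droplets (10x Genomics, 3' ends) and the authors made UMI counts per gene and barcode with Cell Ranger 7.0.1 against mm10. The deposited counts are raw UMI counts of 32285 genes. Barcodes under 500 genes or at 10% mitochondrial UMIs and above were dropped. The rest were normalised with SCTransform on 3000 features, joined across libraries by anchor integration and grouped from 200 principal components (resolution 1.5; Seurat 5.3.0, sctransform 0.4.2, R 4.3.3), as in the study's methods, with the 8 genes left out. Endothelial cells and macrophages were clustered again on 30 components at resolution 0.5. A cluster could be named where at least 3 markers of 1 list were raised 2-fold and found in at least 10% of cells. There were 21 lists for all cells and further lists for endothelial and macrophage subsets, with 255 markers in all. The list with the highest mean fold gave the name. A cluster stayed unnamed where a list of another lineage had more markers among its 10 leading genes. It also stayed unnamed where no marker led and under 2 in 3 were raised or its cells were shallow. Some naming details were settled after the clusters were seen. These were how near-equal lists and clusters led by haemoglobin were treated and that lymphatic marker cells need 2 of 4 markers. Doublets were kept, because the automatic Scrublet threshold called 0 barcodes. Removing the 239 WT and 462 mutant barcodes of highest score is an alternative.

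Levels are CPM with exact Poisson intervals, ratios have conditional exact intervals and shares have Clopper-Pearson intervals after thinning to 2000 UMIs (509 WT and 1269 mutant cells were shallower and left out). PCR and capture make molecules dependent beyond what these intervals cover. Ratios were read only for genes with at least 200 UMIs over both libraries, and correlations used log2(CPM + 5) over most of the classes of at least 30 cells. The text names the 8 genes, genes of a 67-gene pathway list past 2-fold (up to 3 each way) or with a role given, and the 3 nearest genes of each member. The 8 genes and all lists were chosen with earlier results of these data known. Ratios, intervals, thinning and naming were tested on simulated counts drawn independently, with the marker lists raised for naming. Such counts cannot show how the intervals fare with dependent molecules. Cell filters, integration and clustering were not simulated. Alternatives covered cell filters, integration, normalization, components, doublets, class definitions, thinning depth, single droplets, the CPM total and the gene minimum. Promoter sequences are RefSeq's, from GRCm38.p6, and gene positions are those of the GRCm38 annotation.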

Additional observations from a re-analysis of the deposited data

Results flagged for a closer look

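Lpl was lower in the mutant in capillary cells and higher in the inflammatory and resident-type macrophage subsets, though not over all macrophages, where its log2 ratio was -0.11, or in classical monocytes, at -0.87. Its log2 ratio of mutant to WT was higher by 1.71 in inflammatory macrophages than in capillary cells and higher by 3.82 in resident-type macrophages than in capillary cells. For Cd36 the same differences were 0.89 and 1.56. They stand out because the ratio was below 0 in capillary cells and above 0 in the macrophage subset. The differences were not tested, since each genotype is 1 library, and the inflammatory ratios turned below 0 once barcodes of high doublet score were removed. The resident-type ratios stayed above 0 but spanned 0.35 to 2.69 for Lpl and 0.21 to 0.91 for Cd36 over the alternatives. The WT resident-type Lpl level rested on 43 UMIs. The monocyte Lpl ratio rested in large part on the WT droplet with the most Lpl UMIs, described above.

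Adipocyte genes also appeared in the barcodes that the cell filters left out, 1357 in WT and 2089 in the mutant. In the mutant Adipoq was 3.33 CPM there, from 27 UMIs, against 0.194 CPM from 1 UMI in WT. Plin1 was 1.36 CPM in the mutant, from 11 UMIs, and had no UMI in WT.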

How the results depend on the processing

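Of 261 values recomputed under alternatives, 146 moved by no more than their counting interval, 110 moved further and 5 turned direction. A turn was counted only for a ratio whose main interval left out 0, so sign changes of other ratios are not among the 5. Counts of genes past 2-fold have no interval and were judged by the size of their change. In capillary cells Gpihbp1, Lpl, Cd36 and Fabp4 were lower in the mutant under each of 14 alternatives, with log2 ratios of -1.25 to -0.54, -1.47 to -0.93, -0.90 to -0.55 and -1.27 to -0.58. Pparg ranged from -0.43 to 0.25. No paired analysis was possible because each genotype is 1 library and no result comes from a test, and for the same reason no library could be left out. The values below are log2 ratios of mutant to WT unless said otherwise.

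A looser cell filter, 200 genes and 20% mitochondrial UMIs, gave 2.18 for WT Gpihbp1 between capillary and other endothelial cells, 0.61 for macrophage Lpl, which turned direction, 1.002 for macrophage Pparg and 0.35 for resident-type Lpl, and no inflammatory class was named. A stricter filter, 1000 genes and 5%, gave capillary to other Gpihbp1 ratios of 1.53 in WT and 1.27 in the mutant, 2041 CPM of Adipoq in mutant adipocytes, -0.68 for capillary Fabp4, -0.000377 for macrophage Lpl, -0.40 for macrophage Plin2 and 1.37 for resident-type Lpl. Merging without integration gave 2.31 for WT capillary to other Gpihbp1, 1691 CPM of mutant Adipoq, -1.27 and -0.61 for capillary Lpl and Fabp4, and in macrophages 2.86 for Lpl and 0.0170 for Plin2, both turned in direction, and 1.09 for Pparg. Log-normalization gave capillary to other Gpihbp1 ratios of 1.65 and 1.38, 1556 CPM of Adipoq, -0.81 and -0.70 for capillary Cd36 and Fabp4, and 0.37 for resident-type Lpl. With 30 components the Gpihbp1 ratios were 2.18 and 2.17, capillary Fabp4 -0.89 and macrophage Lpl -0.0600. Keeping the 8 genes for clustering gave 2.19 for WT Gpihbp1 and 1677 CPM of Adipoq.

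Without the highest doublet scores the capillary to other Gpihbp1 ratios were 1.52 and 1.40, capillary Gpihbp1 -0.61 and Fabp4 -0.62, macrophage Lpl -0.0228, Plin2 -0.31 and Pparg 1.06, and inflammatory Lpl -0.79 and Cd36 -0.21, both turned in direction. Without each gene's top droplet Adipoq was 1215 CPM and macrophage Lpl -0.0674. Cells with at least 3 UMIs over Pecam1, Cdh5 and Egfl7, in place of capillary cells, gave -1.25 for Gpihbp1, -0.93 for Lpl, -0.90 for Cd36 and -1.27 for Fabp4, and all endothelial cells gave -1.18 for Lpl, -0.55 for Cd36 and -0.79 for Fabp4. Cells with at least 3 UMIs of C1q genes, in place of macrophages, gave -0.25 for Lpl, -0.53 for Plin2 and 1.13 for Pparg. Among settings chosen after seeing the data, the smaller capillary subcluster alone gave -0.54 for Gpihbp1, -0.77 for Cd36 and -0.91 for Fabp4, the larger gave -0.58 for Fabp4, and macrophages without their shallow subcluster gave -0.0568 for Lpl. The other added settings, a total without haemoglobin, mitochondrial and ribosomal protein genes and leaving out shared barcodes, turned no direction. The cause of these changes was not tested.

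Thinned to 1000 UMIs, shares of capillary cells with a UMI were 61.2% in WT and 43.9% in the mutant for Gpihbp1 and 71.1% and 44.9% for Lpl, and shares of inflammatory macrophages with Lpl 44.4% and 47.1%. Thinned to 4000 UMIs they were 91.9% and 83.8%, 93.9% and 74.7%, and for WT inflammatory Lpl 67.2%. With genes of at least 100 UMIs, 69 genes were past 2-fold higher in capillary cells and 455 in macrophages, in place of 22 and 262. With at least 500 UMIs there were 7, 145 and, past 2-fold lower in macrophages, 49 in place of 91. The 7 WT adipocytes and the lymphatic marker cells were limited by cell number.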

Other observations

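A few values in the remaining cell classes belong to no comparison above. Progenitors of blood cells held 22.8 CPM of Cd36 in WT and 136 in the mutant, where 131 of 347 UMIs lay in 1 droplet, and 25.3 and 72.1 CPM of Pparg. Osteoblasts and osteocytes held 16.9 and 74.2 CPM of Adipoq, with 17 of 40 mutant UMIs in 1 droplet. Dendritic cells of the mutant carried Pparg, with 20 of 20 UMIs in 1 droplet. An unnamed cluster near erythroid cells, 8 cells in WT and 54 in the mutant, held 2169 and 1319 CPM of Cd36, and 1 of the erythroid clusters 591 and 527 CPM.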
